A study of Mus musculus with 2 samples.

Results

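Of the 23308 peaks of tagged Rfx6, 2022 (8.68%, 95% Wilson interval 8.32 to 9.04) had their summit deep in an intron of a protein-coding gene. A peak was placed in this class when its summit lay inside a protein-coding gene of the GENCODE M1 annotation, in no coding or untranslated exon segment, and more than 50 kb from the nearest start of a protein-coding transcript (mouse genome build mm9). The rule used position only, so the reads, the enrichment and the sequence of these peaks were not part of it. They were set beside 8810 other intronic peaks, whose summits lay within 50 kb of a start, and 3104 distal intergenic peaks, whose summits lay outside protein-coding genes and more than 50 kb from a start. The 797 genes that held a deep intronic peak are called host genes.

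Binding was measured by ChIP-seq in Min6b1 cells, an insulin-secreting mouse β cell line, that were transfected with the plasmid pCMV-Tag2A-3HA-Rfx6 and harvested 2 days later. The HA-tagged Rfx6 came from the plasmid, so its level need not be that of the cells' own Rfx6, and it was precipitated with the anti-HA antibody 12CA5. The same precipitation from cells labelled only as Min6b1 served as the control, although the growth note given with both samples describes the transfection. There was 1 library per condition, so no value below has a replicate error or a p-value, and the intervals are 95% intervals for counting error only, treating sites of the same library as independent, which they need not be. The 3HA-Rfx6 library kept 33949757 of 49443917 mapped reads after removal of reads at the same position, and the control kept 3567375 of 16911298. No RNA was analysed here, so the identity of the cells and the activity of the host genes could not be checked.

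Rfx6 is a winged-helix transcription factor of the RFX family and is required for the formation and the function of pancreatic islet cells. RFX proteins recognise the X-box, a sequence with 2 arms arranged as an imperfect inverted repeat around a short spacer. Long introns are known to hold many enhancers, elements that can act on a promoter far away, but position inside a gene does not by itself tell which gene an enhancer acts on.

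X-boxes near deep intronic summits are shown first, because the X-box is the sequence that RFX proteins recognise. The capitals mark the X-box, the coordinates are those of the capitals in mm9, and each sequence is written 5′ to 3′ on the strand named. The first group holds 1 X-box for each of 6 deep intronic peaks, the 6 with the most reads among those that had a strict match.
Gabbr2, intron 11, chr4:46742709-46742722, minus strand: gaagtagaGTCACCATAGCAACaaggcccc
Cdh4, intron 2, chr2:179448257-179448269, minus strand: cagtcagaGTCACCTGGCAACtgtcaatc
Grid1, intron 2, chr14:35746587-35746599, minus strand: acagcctgGTTGCCTAGCAACagaccatt
Camta1, intron 5, chr4:150791477-150791489, minus strand: tcccccacGTTACCCAGCAACccctctga
4933407C03Rik, intron 3, chr8:119923328-119923341, plus strand: gactcatgGTTACCCAGGCAACcagctgat
Trank1, intron 16, chr9:111286533-111286545, plus strand: cttattctGTTGCCTAGCAACcctcatta

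Some summits carried the X-box in tandem. The Cdh4 summit had 4 copies within 100 bp, and the other 3 are shown here beside the 3 copies at a Col6a4 summit and the 2 at a Rnf150 summit, which were chosen after their values were seen.
Cdh4, chr2:179448180-179448192, minus strand: caatcagaGTCACCTGGCAACtttcaatc
Cdh4, chr2:179448281-179448293, minus strand: caatcaggGTCACCTGGCAACtgtcagtc
Cdh4, chr2:179448305-179448317, minus strand: caatcagaGTCACCTGGCAACtgtcaatc
Col6a4, chr9:105928582-105928596, plus strand: acatagaGTAACCAAGAGTAACatagata
Col6a4, chr9:105928606-105928620, plus strand: agatagaGTAACCAAGAGTAACaaacata
Col6a4, chr9:105928654-105928668, plus strand: agatagaGTAACCAAGAGTAACacacgta
Rnf150, chr8:85462560-85462572, plus strand: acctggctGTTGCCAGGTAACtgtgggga
Rnf150, chr8:85462596-85462608, plus strand: atctggctGTTGCCAGGTAACtgcaagga

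The median distance of the deep intronic summits to the nearest protein-coding start was 88.7 kb, the middle 50% lay between 65.6 and 133 kb, and the farthest summit was 622 kb away. Of the 2022 summits, 2000 could be placed in an intron of a protein-coding transcript, and the other 22 lay in no intron of one. The first intron held 395 (19.5%), the second 345 (17.1%), the next 270 (13.4%), and introns from number 4 onwards held 990 (49.0%). All 85 peaks of Gm20388 were counted in the first intron and all 12 of Fgfr2 in the second. Both are very long gene models described below, and without them the first intron held fewer peaks than the second. The intron that held a summit had a median length of 61.9 kb. Along the host gene, 257 summits (12.7%) lay in the first 25% of its length, 526 (26.0%) in the next 25%, 648 (32.0%) in the following 25% and 591 (29.2%) in the last 25%, an order that the distance rule itself shapes.

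Deep intronic sequence, meaning all intronic bases that fulfil the same position rule, made up 12.8% of the genome (326 Mb), and it held 6.20 summits per Mb (Poisson interval 5.93 to 6.48). The other intronic sequence held 14.8 per Mb (14.5 to 15.1), distal intergenic sequence held 3.10 (2.99 to 3.21), and the whole genome held 9.12. The density of deep intronic summits was therefore below that of introns near starts and above that of intergenic sequence, with intervals that did not overlap. Within the deep introns it fell with distance from the nearest start, from 8.07 per Mb (7.62 to 8.55, 1169 peaks) at 50 to 100 kb to 6.18 (5.71 to 6.68, 640 peaks) at 100 to 200 kb, 3.34 (2.88 to 3.85, 192 peaks) at 200 to 400 kb and 1.04 (0.645 to 1.59, 21 peaks) beyond 400 kb.

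At matched distances the introns held more summits per Mb than intergenic sequence did. Intergenic sequence held 6.57 per Mb (6.23 to 6.91) at 50 to 100 kb, 4.0 (3.75 to 4.26) at 100 to 200 kb and 2.08 (1.90 to 2.27) at 200 to 400 kb, all below the intronic intervals. Beyond 400 kb it held 0.615 (0.529 to 0.711), which overlapped the intronic interval. The gap also stood at 25 to 50 kb, where introns held 9.89 and intergenic sequence 8.64 per Mb, so it was not particular to the deep introns. Mappability and base composition were not matched between the classes, and their part in the gap was not tested.

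**Figure D1:**
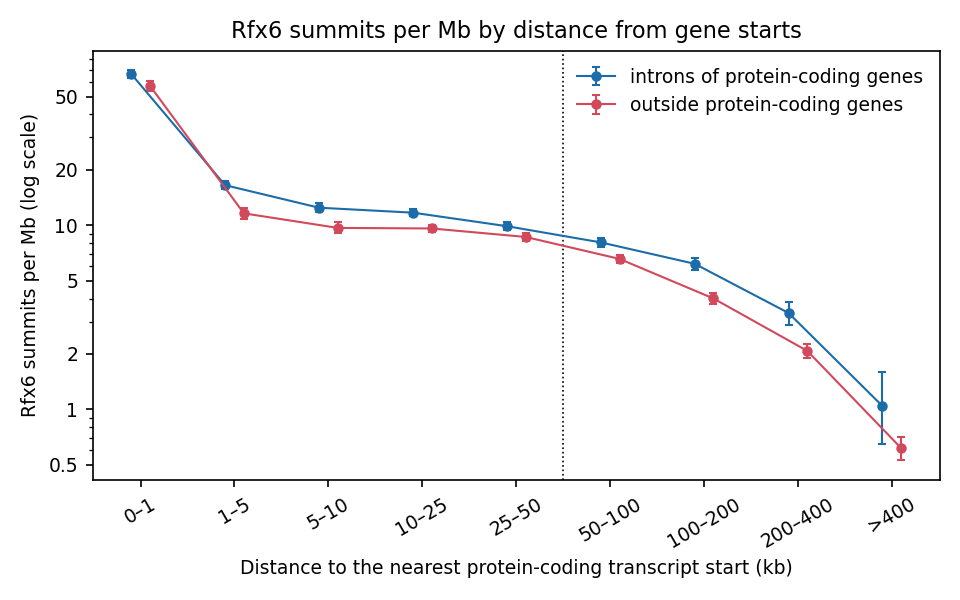
Summits per Mb (y axis, log scale) in bins of distance to the nearest protein-coding start (x axis, kb) for introns (blue) and sequence outside protein-coding genes (red), with 95% Poisson intervals as bars. The bins right of the dotted line at 50 kb hold the deep intronic and distal intergenic peaks, and the intronic points run from 8.07 down to 1.04 per Mb, above the intergenic points from 6.57 down to 0.615.

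The density varied less with distance from exons than with distance from starts. Deep intronic summits within 1 kb of a coding or untranslated exon segment numbered 237 at 6.36 per Mb (5.58 to 7.23), and those at 5 to 20 kb numbered 615 at 6.92 (6.38 to 7.49). The 387 summits more than 50 kb from any exon segment (19.1%) had 5.31 per Mb (4.8 to 5.87). The median reads of these distance classes lay between 68 and 70. Transcripts of other types started within 1 kb of 48 deep intronic summits (2.37%) and within 50 kb of 837 (41.4%), so for those the nearest start of any kind was closer than the rule requires of protein-coding starts.

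Deep intronic peaks had somewhat fewer reads than introns near starts and the same median fold. Reads per peak ranged from 26 to 659 with a median of 68.5 (order-statistic interval 66 to 71), against 73 (72 to 74) in the other intronic peaks and 68 (66 to 70) in the distal intergenic peaks. Fold enrichment over the background that MACS expected ranged from 3.29 to 63.6 with a median of 8.47 (8.24 to 8.71), against 8.47 (8.47 to 8.71) and 8.53 (8.44 to 8.71). A fold of at least 20 was reached by 187 deep intronic peaks (9.25%, 8.06 to 10.6), where 10.4% of all peaks reached it. Of the deep intronic peaks, 150 (7.42%, 6.36 to 8.64) were among the 10% of all peaks with the most reads, against 10.5% (9.87 to 11.2) of the other intronic peaks. The upper tail of reads was thus thinner than in introns near starts. The median deep intronic peak was 1168 bp wide, had a MACS score of 138 and an FDR of 2.96%.

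The Aff2 peak had the most reads. Aff2 encodes a nuclear protein of the AF4 family, and the summit in its intron 10 (X:67090340) had 659 reads and a fold of 41.0, rank 25 by reads of all peaks. The peak in intron 5 of Wwox, the oxidoreductase gene at a common fragile site, had 642 reads and a fold of 26.4 at 225 kb from the nearest start. The third, with 613 reads and a fold of 36.5, lay in Gm20388, a gene model that is described below with the host genes. The peak in Hspg2, which encodes the basement membrane proteoglycan perlecan, had 607 reads and a fold of 23.1. Its summit lay 50.5 kb from a start in an intron of 0.361 kb, 5 bp from an exon segment, so it was deep by distance from a start and not from exons.

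The next peaks by reads were in introns of Agap1, an activator of Arf GTPases (509 reads, fold 23), of Rbfox3, the splicing factor known as NeuN (470 reads, fold 21.9), and of Gabbr2, a subunit of the GABA-B receptor (453 reads, fold 32.5). Cdh4, which encodes R-cadherin, held both of the following peaks in its intron 2, with 439 reads and a fold of 32.3 and with 435 reads and a fold of 63.6. Sipa1l2 closed the 10 peaks with the most reads at 426 reads and a fold of 23.1. These 10 peaks had between 426 and 659 reads, where the deep intronic median was 68.5.

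By fold the order was another. The Cdh4 peak with 4 X-boxes led at 63.6, rank 26 of all peaks, and 4933407C03Rik followed at 53.9 with 316 reads. Odz4, a teneurin, had 46.1 with 320 reads, Tiam1, an exchange factor for Rac, 44.5 with 339, and the kinase gene Dapk1 44.5 with 257. Col5a1, a chain of type V collagen, had 43.1 with 390 reads and Bcr, known from its fusion with ABL, 42.8 with 343. Tead1, a transcription factor of the Hippo pathway, had 42.6 with 291 reads, a second Gm20388 peak had 42.1 with 345, and another Cdh4 peak had 41.7 with 255. Only 1 peak, that of Cdh4 with 435 reads, was among the 10 highest by both measures.

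**Figure D2:**
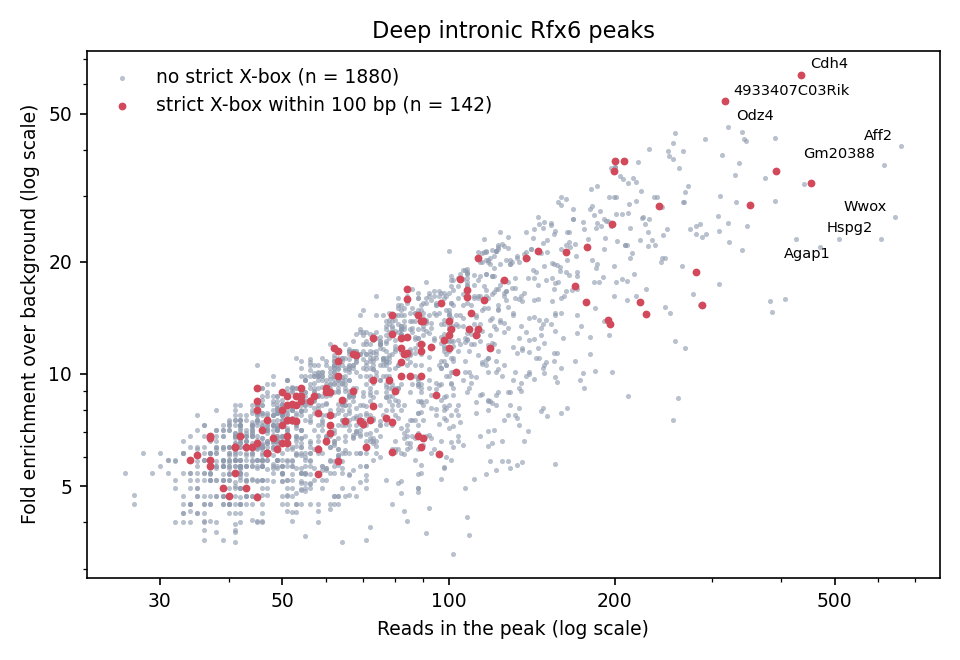
Each point is a deep intronic peak, with its reads on the x axis and its fold enrichment on the y axis (both log scales). Red points are the 142 peaks with a strict X-box within 100 bp of the summit, and the Cdh4 peak at 435 reads and 63.6-fold stands highest, while Aff2 at 659 reads stands farthest right.

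X-boxes were concentrated at the deep intronic summits. A strict X-box was taken as a left arm GTNACC or GTNGCC, a spacer of 0 to 3 bases and a right arm AGNAAC or GGNAAC in which N is C or T. It was searched on both strands within 100 bp of the summit. It was found at 142 of the 2022 summits (7.02%, 5.99 to 8.22), where 6.44% of all peaks had it, and in 0.173% of the flanking windows of the same length centred 1 kb to each side. The excess over the flanks was 6.85 percentage points (Newcombe interval 5.80 to 8.05). The other intronic peaks had it at 5.71% and the distal intergenic peaks at 8.25%. The difference of the deep intronic peaks from the former was 1.31 points (0.163 to 2.60) and from the latter -1.23 points (-2.68 to 0.283), the last interval including 0.

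Looser forms were frequent. The right arm alone, here called the half-site, lay at 1307 deep intronic summits (64.6%, 62.5 to 66.7), against 24.9% of their flanks, and 60.9% of all peaks had it. The share exceeded that of the other intronic peaks by 3.95 points (1.61 to 6.24) and was below that of the distal intergenic peaks by an interval that excluded 0 (-2.98 points, -5.65 to -0.338). A relaxed X-box, in which each arm may vary at several bases, lay at 1005 summits (49.7%), against 23.8% of flanks and 46% of all peaks. The half-site is part of the strict X-box, so the 3 counts overlap.

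Among the 142 best matches the spacer had 1 base in 75, 2 bases in 54, 3 bases in 12 and none in 1. They took 78 distinct forms, read on the strand that sorts first where both strands matched, and 55 forms were seen once. The most frequent were GTTACCTGGCAAC at 18 summits and GTTGCCTAGCAAC at 14, the form also seen at Grid1 and Trank1. The X-box lay a median of 18 bp from the summit, and 86 of the 142 (60.6%) had it within 25 bp.

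Tandem X-boxes were found at 17 deep intronic summits with at least 2 strict matches that did not overlap. The last 3 of the Cdh4 copies followed each other at steps of 24 bp, and those of Col6a4 at 24 and 48 bp. The Rnf150 copies were 36 bp apart, and so were pairs in Ank3, Pid1, Ppm1l, Srgap1 and Tiam1. Of the 22 distances between neighbouring copies in deep intronic peaks, 13 (59.1%, 38.7 to 76.7) were 34 to 36 bp, a range chosen after the values were seen. In all other peaks this held for 86 of 155 (55.5%, 47.6 to 63.1), and the intervals overlapped.

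The strict share was 5.34% in the 25% of deep intronic peaks with the fewest reads, then 7.72% and 8.51%, and 6.52% in the 25% with the most, with overlapping intervals. Median reads were 67 (64 to 71) in the 715 peaks without a half-site and 69 (66 to 72) in the 1165 with a half-site and no strict X-box, 73 (61 to 82) with 1 strict X-box and 78 (63 to 100) with more, all intervals overlapping. The median fold of the first pair of classes was 7.77 (7.48 to 8.24) and 8.94 (8.47 to 9.42), intervals that did not overlap. The 125 peaks with 1 strict X-box had a median fold of 8.94 (8.24 to 10.8) and the 17 with more had 11.2 (8.47 to 13.9). Of the 10 peaks with the most reads, 2 had a strict X-box and 6 a half-site, and Aff2, Wwox, Rbfox3 and Sipa1l2 had neither.

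Motifs of other factor families were also counted on both strands. The motif CAGATG, an E-box bound by basic helix-loop-helix factors such as NeuroD1, lay at 419 deep intronic summits (20.7%, 19.0 to 22.5), against 16.7% of their flanks, and 16.2% of all peaks had it. The share was 3.91 points (2.03 to 5.89) above the other intronic peaks and 3.16 (0.968 to 5.40) above the distal intergenic peaks. TGCTGAC, part of the site of large Maf factors, lay at 106 summits (5.24%, 4.35 to 6.30), against 2.89% of flanks and 4.16% of all peaks, 1.01 points (0.0159 to 2.14) above the other intronic peaks and 0.861 (-0.321 to 2.11) above the distal intergenic ones. TGACTCA, the AP-1 site, which can share bases with the Maf site, was at 4.75% of summits and 3.39% of flanks, and TGTTTAC, a forkhead site, at 2.42% and 2.62%. TAATTA, a homeodomain core, was rarer at summits (2.37%) than in flanks (5.12%), and the cyclic AMP response element TGACGTCA was found at 1 summit (0.0495%).

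The median GC content in the window of 201 bp around deep intronic summits was 51.7%, in the flanks 46.8%, and in all deep intronic sequence it was 41.0% overall. The other intronic summits had 54.2% and the distal intergenic 51.7%. The part of base composition in the motif shares was not tested. CpG was scarce, with a median observed to expected ratio of 0.172 against 0.219 at the other intronic summits.

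**Figure D3:**
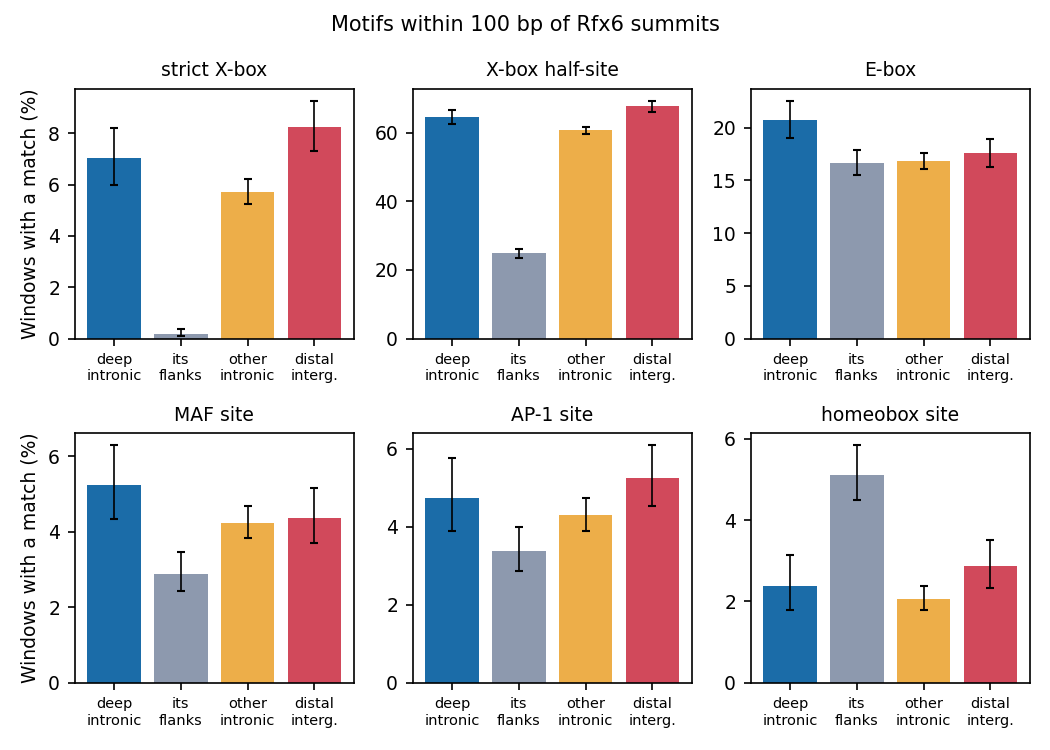
Share of windows within 100 bp of a summit that hold each motif (y axis, percent, a separate scale starting at 0 in each panel) for deep intronic summits, their flanks 1 kb away, other intronic summits and distal intergenic summits, with 95% Wilson intervals as bars. The half-site is at 64.6% of deep intronic summits and 24.9% of flanks, and the E-box at 20.7% of deep intronic summits is the highest of its 4 bars.

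The peaks were spread over many genes and gathered in a few. Of 2831 protein-coding genes with deep intronic sequence, 797 (28.2%) held at least 1 such peak. Among the hosts, 409 held 1 peak, 158 held 2 and 230 held 3 or more. The 101 genes with 5 or more held 859 peaks, 42.5% of all deep intronic peaks, and 22 genes held 10 or more. Neighbouring summits in the same host lay a median of 15.4 kb apart, and 266 of 1225 neighbour pairs (21.7%) were within 5 kb.

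Gm20388, on chromosome 8 from 122434741 to 126869622, held 85, and Fgfr2, a fibroblast growth factor receptor gene, held 12. Both annotated models are unusually long, 4.43 Mb and 3.01 Mb, and contain 72 and 31 other genes, so peaks counted there may lie between genes that the longer model spans. The 97 peaks that lay only in these models were therefore set aside once. Without them 1925 peaks remained at 5.94 per Mb (5.68 to 6.21), the median fold was 8.53 and the strict X-box share 7.17%. The densities by distance became 7.82 per Mb (7.37 to 8.29) at 50 to 100 kb and 5.71 (5.26 to 6.19) at 100 to 200 kb, still above the intergenic intervals.

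Cdh4 was the host with the most peaks after Gm20388. It held 24 deep intronic peaks of 31 intronic peaks, 68.4 per Mb (43.8 to 102) of its deep intronic sequence, with 36 to 439 reads and a median of 72. Ptprn2, which encodes a transmembrane protein of insulin secretory granules, held 20 at 27.1 per Mb, and its strongest had 321 reads and a fold of 25.4 in intron 2. Prdm16, a zinc finger regulator of brown fat identity, held 19 at 81.0 per Mb with 33 to 222 reads. Agap1 held 18 at 48.2 per Mb, among them peaks of 509, 389 and 268 reads.

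Celf4, an RNA-binding protein of neurons, held 16 with 35 to 257 reads, and Rbfox3 held 14 at 100.4 per Mb of its short deep sequence with 31 to 470 reads. Magi1, a scaffold protein of cell junctions, also held 14, and its 3 peaks with the most reads (197, 186 and 181) had folds of 35.7, 32.0 and 31.4. Odz4, Jazf1, Hivep3, Igsf21 and Smyd3 followed the first 10 hosts with 11 each. The peaks in these genes spanned weak and strong ones, since the lowest in each of Cdh4, Ptprn2, Prdm16, Celf4 and Rbfox3 had fewer than the deep intronic median of 68.5 reads.

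**Figure D4:**
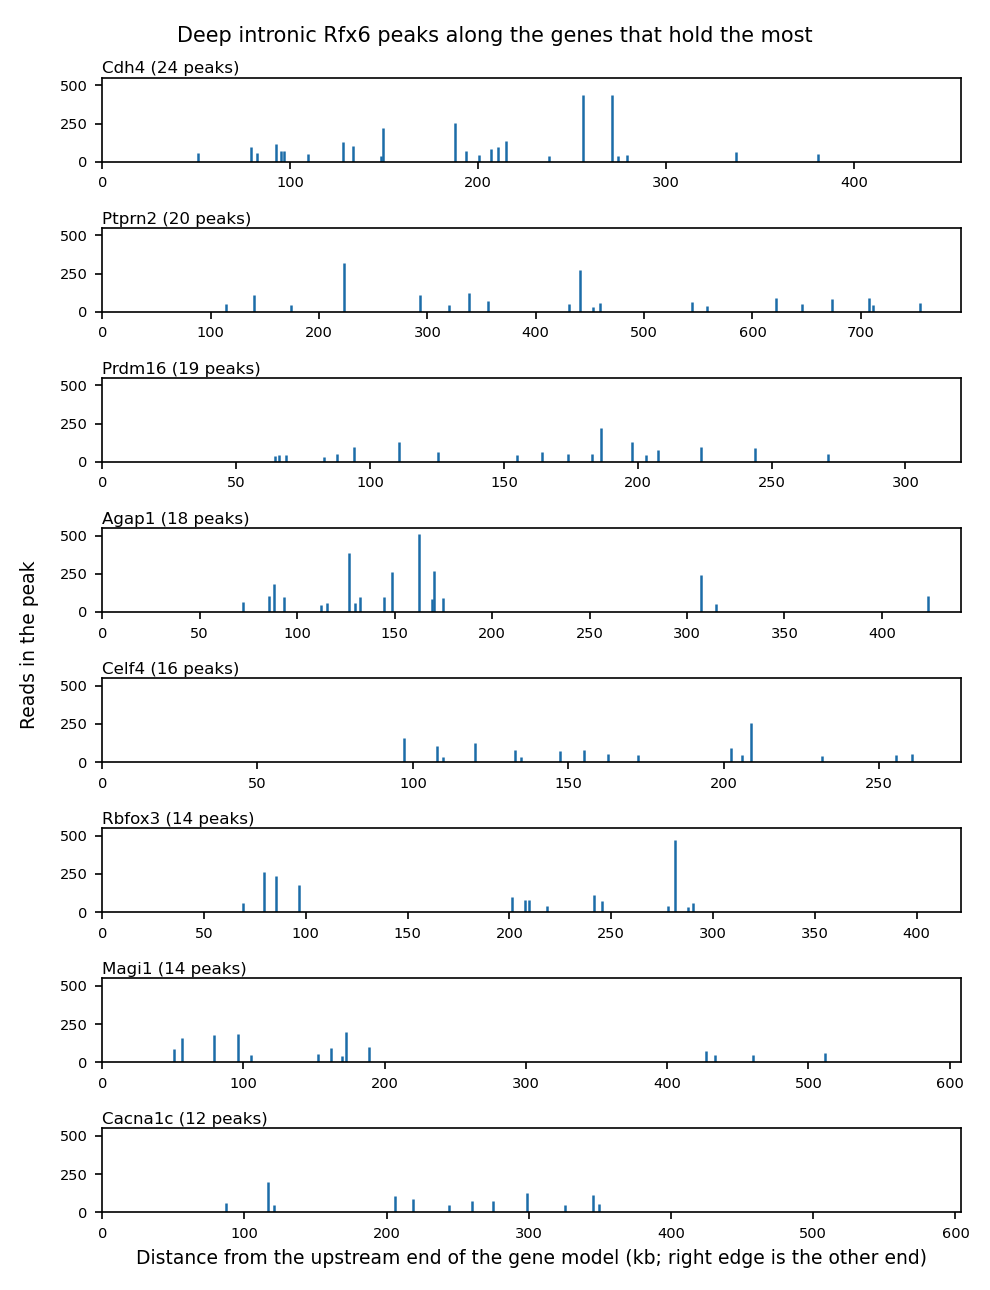
Position of each deep intronic peak (x axis, kb from the upstream end of the gene model, drawn to the other end) and its reads (y axis, same scale in all panels) in 8 of the 10 host genes with the most peaks, without the very long models Gm20388 and Fgfr2. Cdh4 has 24 bars with 36 to 439 reads, and Cacna1c 12 bars with 46 to 199 reads between its positions near 90 and 350 kb.

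Cacna1c encodes the pore-forming subunit of an L-type calcium channel, through which calcium enters β cells before insulin is released. Of its 18 intronic peaks 12 were deep intronic, 31.5 per Mb (16.3 to 55.1). The strongest, in intron 1 at 95.5 kb from a start, had 199 reads and a fold of 19.5. Next came a pair of peaks in intron 3, which had 127 reads with a fold of 15.8 and 113 reads with a fold of 21.2, and the weakest had 46 reads. No Cacna1c peak of this class had a strict X-box, which only 7.02% of all deep intronic peaks and 6.44% of all peaks had. A half-site lay at 11 of the 12, where 64.6% of all deep intronic peaks and 60.9% of all peaks had it. Cacnb2, which encodes an auxiliary subunit of these channels, held 1, with 40 reads and a fold of 7.30 in intron 2 at 88.0 kb from a start. Abcc8, the sulfonylurea receptor subunit of the ATP-sensitive potassium channel, had 8 intronic peaks, and none of them was deep intronic.

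Genes with more deep sequence did not hold proportionally more peaks. Genes with up to 50 kb of it held 8.32 summits per Mb, those with 50 to 100 kb 9.57 and those with 100 to 200 kb 8.43. Those with 200 to 400 kb held 6.51, and those with 400 to 1000 kb 3.36. Genes with more of it can hold more sequence far from starts, where the density was lower, and the part of that distance was not tested. The 23 genes with over 1000 kb, Gm20388 aside, held 14 summits at 0.461 per Mb. Cntnap2, a neurexin-like adhesion protein with 1985 kb of deep intronic sequence, had none, which allows up to 1.86 per Mb. None was found either in Macrod2, Ptprd, Csmd1, Dlg2, Gpc5, Il1rapl1, Lrrc4c, Cntn5, Galntl6, Magi2 and Odz2, and 1 each in Lrp1b, Pcdh15 and Dmd, the dystrophin gene.

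Hosts were more often found among genes whose own start was bound. Of 955 genes with deep intronic sequence and a summit within 1 kb of one of their starts, 356 (37.3%, 34.3 to 40.4) held a deep intronic peak. Of the 1876 genes without such a summit, 441 (23.5%, 21.6 to 25.5) held one. The densities were 8.78 per Mb (8.25 to 9.34) and 4.76 (4.47 to 5.06), and 8.10 (7.58 to 8.64) for the former without Gm20388 and Fgfr2. The genes with a bound start had slightly more deep sequence, with medians of 55.6 and 47.0 kb. Open chromatin and activity of these genes were not measured here, and their part was not tested.

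Deep intronic peaks were scarce on the X chromosome. It held 9 at 0.545 per Mb (0.249 to 1.03), where the autosomes held 6.5 per Mb (6.22 to 6.79). The same was seen over all peaks, with 1.07 per Mb on the X chromosome (0.920 to 1.25) and 9.66 on the autosomes (9.54 to 9.79). The Aff2 peak, first by reads among the deep intronic peaks, was 1 of the 9.

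Gene groups were compared by peaks per Mb of deep intronic sequence, since the genes of every group had a larger median length of it than the 49.3 kb over all 2831 genes. The rate over all genes was 6.18 per Mb (5.91 to 6.46, with sequence shared by overlapping genes counted for each). That rate differed with the amount of deep sequence, with 9.57 per Mb in genes with 50 to 100 kb and 8.43 with 100 to 200 kb. The median amount was 85.6 kb in the listed transcription factors, 96.2 kb in the diabetes genes and 69.4 kb in the matrix genes. No group rate or share was matched for this amount. Summits cluster within genes, so the Poisson intervals are too narrow for a group, and each rate that stood apart is also given without the host with the most peaks. The lists were chosen for this description with earlier results of these data known. They do not hold every gene of the kind they name, so each count, rate and ranking covers the listed genes only.

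Transcription factors encoded by long genes had 94 deep intronic peaks in 34 of 63 genes (54.0%, 41.8 to 65.7). Over all genes 28.2% held a deep intronic peak, and 33.8% of those with 50 to 100 kb of deep sequence. The rate of the transcription factors was 10.2 per Mb (8.23 to 12.5), and 8.34 (6.56 to 10.4) without Prdm16. Among the listed genes the highest by reads were in Bach2, a leucine zipper repressor of lymphocytes (381 reads, fold 15.7), Tead1 (291 reads) and Glis1, a zinc finger factor (255 reads, fold 7.54). The list left out the long host genes Zfp423 (up to 385 reads) and Camta1 (up to 351 reads). Genes at association signals for type 2 diabetes had 52 peaks in 14 of 23 genes (60.9%, 40.8 to 77.8), 9.95 per Mb (7.43 to 13), and 8.23 (5.91 to 11.2) without Jazf1. The strongest were in Anks1 (277 reads, fold 16.4), Jazf1 (267 reads, fold 28.9), a nuclear zinc finger gene with 11 peaks, and Cdkal1, a tRNA-modifying enzyme (199 reads, fold 35.0, with a strict X-box). The list takes genes by the name commonly given to a signal.

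The calcium channels had the largest share of host genes of the groups shown and a rate near those of the transcription factors and diabetes genes, and that rate rested on Cacna1c. Calcium channel subunits had 23 peaks in 8 of 12 genes (66.7%, 39.1 to 86.2), where 28.2% of all genes were hosts. Their median deep sequence was 161 kb, and 46.8% of all genes with 100 to 200 kb of it were hosts. The rate of the calcium channel subunits was 9.85 per Mb (6.24 to 14.8), which became 5.62 (2.81 to 10.1) without Cacna1c. The other members with the most reads were in Cacna2d3 (140 reads, fold 11.5) and Cacna2d1 (132 reads, fold 16.0), both auxiliary subunits. Potassium channels had 34 peaks in 12 of 26 genes, 6.56 per Mb (4.54 to 9.17), led by Kcnh1 (235 reads, fold 29.9), Kcnip1, a channel-interacting protein (213 reads, fold 24.7), and Kcnj6 (149 reads, fold 12.1). Phosphodiesterases and adenylyl cyclases, which break down and make cyclic AMP or GMP, had 22 peaks in 8 of 19 genes, 7.56 per Mb (4.74 to 11.4), the strongest in Pde4b (280 reads), Pde10a (146 reads) and Adcy5 (123 reads).

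The listed protein kinases had 45 peaks in 15 of 37 genes, 5.51 per Mb (4.02 to 7.38). Highest among the listed genes were Fgfr2 (340 reads, in the very long model), Prkce, a protein kinase C (224 reads), and Ntrk2, a neurotrophin receptor (190 reads). The kinase gene Dapk1, with its peak of 257 reads, was not on the list. Receptor tyrosine phosphatases had 35 in 6 of 15 genes, 6.64 per Mb (4.62 to 9.23), and 3.31 (1.85 to 5.46) without Ptprn2. Ptprn2 held 20 of the 35, and the next by reads were in Ptprm (201 reads) and Ptprg (102 reads). Extracellular matrix genes had 51 in 18 of 50 genes, 8.73 per Mb (6.5 to 11.5), and 7.17 (5.15 to 9.73) without Adamts2. Col5a1 (390 reads), Adamts2, a procollagen protease (374 reads, fold 33.7), and Col23a1 (210 reads, fold 15.8) stood first among the listed genes. Hspg2, with its peak of 607 reads, and Fbln1 (4 peaks, up to 175 reads) were not on the list.

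The lowest rates per Mb were in the listed synaptic, adhesion and exocytosis genes. Their share of host genes was above the 28.2% of all genes in the receptors and the adhesion molecules and below it in exocytosis. Over all genes, however, this share was 11.8% with up to 50 kb of deep sequence, 33.8% with 50 to 100 kb and 46.8% with 100 to 200 kb. It was 57.5% with 200 to 400 kb, 55.6% with 400 to 1000 kb and 33.3% with more. The median deep sequence was 221 kb in the receptors, 391 kb in the adhesion molecules and 119 kb in exocytosis. Each of the 3 shares was below that of the class that holds the group's median amount. The genes of a group spread over several classes, and neither the shares nor the rates per Mb were matched for the amount. Glutamate and GABA receptors had 32 in 9 of 29 genes (31.0%, 17.3 to 49.2), 3.66 per Mb (2.5 to 5.16), and 2.74 (1.72 to 4.14) without Grid1. Of the 32, 10 were in Grid1 (up to 392 reads) and others in Grin2a (108 reads) and Grm4 (102 reads, fold 3.29). The list left out Gabbr2, whose 10 deep intronic peaks had up to 453 reads and lay at 41.65 per Mb. A rate of the receptors with Gabbr2 was not computed. Cell adhesion molecules had 75 in 22 of 56 genes (39.3%, 27.6 to 52.4), 2.66 per Mb (2.09 to 3.34), and 1.83 (1.37 to 2.41) without Cdh4. Dscam (201 reads) and Ntm (139 reads) followed Cdh4 in that group. Genes of exocytosis, the release of granules and vesicles, had 9 in 6 of 32 genes (18.8%, 8.89 to 35.3). Their rate was 1.58 per Mb (0.724 to 3.01), and 0.898 (0.291 to 2.10) without Rimbp2. Their strongest peaks were in Rimbp2, a presynaptic scaffold (250 reads, fold 39.5), Stx8, a syntaxin (192 reads, fold 23.1), and Syt9, a synaptotagmin of secretory granules (118 reads, fold 12.0). The median fold was 7.54 in the glutamate and GABA receptors, 8.24 in the adhesion molecules and 10.6 in the 9 exocytosis peaks, against 8.47 over all deep intronic peaks.

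**Figure D5:**
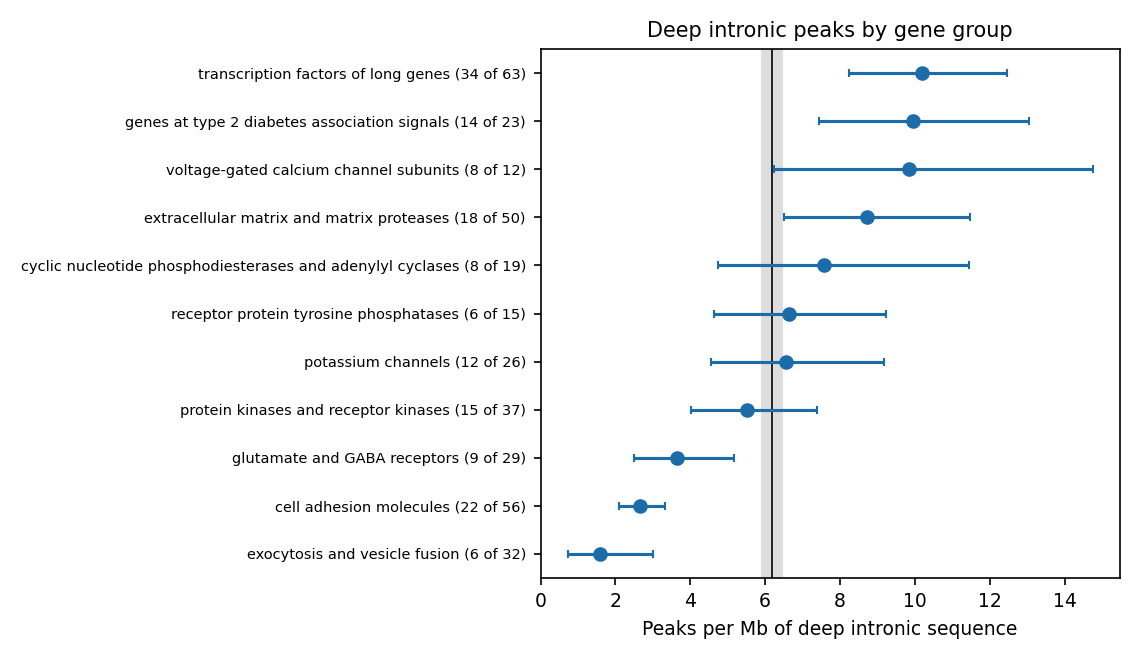
Deep intronic peaks per Mb of deep intronic sequence (x axis) for 11 gene groups (rows, with host genes of genes that have such sequence in parentheses), as points with 95% Poisson intervals. The black line and grey band are the rate over all genes, 6.18 per Mb (5.91 to 6.46), and the groups run from 1.58 for exocytosis to 10.2 for transcription factors.

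The distance threshold cut through a continuous range. The 3 deep intronic summits nearest to it were in Ctif (50011 bp from a start, 88 reads, fold 13.2), Arhgap18 (50115 bp, 40 reads, fold 5.61) and Prkce (50120 bp, 52 reads, fold 4.94). The 3 intronic summits nearest to it on the other side were in Hydin (49987 bp, 140 reads, fold 23.8), 1700101E01Rik (49961 bp, 129 reads, fold 10.1) and Rasal2 (49956 bp, 69 reads, fold 5.84).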

How the data were processed

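The authors sequenced 1 anti-HA ChIP library of 3HA-Rfx6 Min6b1 cells and 1 of control Min6b1 cells. The submitters' processing notes name CASAVA 1.8.2, Bowtie and MACS 1.4.2. The deposited peak list, with coordinates in mm9, gives for each peak the count of reads, not normalized, the fold enrichment as a ratio to the background MACS derived from the control and the surroundings of the peak, a score (minus 10 times log10 of the p-value, cutoff 1e-05), and an FDR in percent. Per the file headers the authors let MACS keep 1 read per position and estimated a fragment size of 234 bp. The control was shallower and entered only through peak calling. Its own peak list was not analysed here.

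Summits were placed on the NCBIM37 (mm9) sequence with GENCODE M1. A peak in several genes was given to the shortest. Motifs were searched in 201 bp around the summit and around points 1 kb to each side. No test across features was run, because there was 1 library per condition. Intervals are Wilson (shares), Newcombe (differences of shares), exact Poisson (densities) and order-statistic (medians), all at 95%. Named were the 10 peaks with the most reads, the 10 with the highest fold, the 10 hosts with the most peaks, 3 peaks on each side of the distance threshold, the 3 hosts of each gene list whose highest peak had the most reads, up to 6 peaks with a strict X-box for printing, and Cacna1c, Cacnb2 and Abcc8. Other hosts and tandem sites were named after their values were seen. One gene group and some genes are not reported here. The members, the lists and the alternatives were chosen with earlier results of these data known. Scripts ran in Python 3.11.15 (scipy 1.17.1, pandas 2.3.3, numpy 2.4.6) and figures were drawn with matplotlib 3.10.9. Tested on simulated data, the search found 400 of 400 planted X-boxes, 1000 of 1000 positions were classed correctly, and Wilson and median intervals held the true value in 95.4% and 94.2% of 500 draws.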

Additional observations from a re-analysis of the deposited data

How the results depend on the processing

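The number of deep intronic peaks and the number of host genes followed the definition. A distance of 25 kb gave 3658 peaks in 1526 genes at 7.44 per Mb, 100 kb gave 853 in 341 at 4.71, and starts of all transcript types gave 1185 in 495 at 5.52. A score of at least 100 left 1265 peaks at 3.88 per Mb with a median of 91 reads and a fold of 11.3, and a fold of at least 10 left 788. The autosomes alone held 6.5 per Mb. A relaxed X-box raised the share to 49.7% and a window of 50 bp lowered the strict share to 5.59%. Of 55 recomputed values 37 stayed within their interval or within 1.5 times a count, and 18 moved. All were counts, densities, medians or shares, so none of them could change direction. The alternative without hosts over 2.5 Mb was added after seeing the data. With a score of at least 100 the E-box share was 20.8% in deep intronic, 16.5% in other intronic and 16.9% in distal intergenic peaks, and the strict X-box shares were 7.43%, 6.35% and 8.20%. No paired analysis was possible because a single library stood for each condition and nothing was tested. The control kept fewer reads than the 3HA-Rfx6 library, and what this did to folds and FDR was not tested.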
